A study of Rattus norvegicus with 16 samples.

Results

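The CC chemokine genes Ccl2, Ccl3, Ccl4, Ccl5, Ccl6, Ccl7, Ccl12 and Ccl22 were followed in sorted rat microglia. They were taken by symbol from the deposited table of counts. Of the 8 symbols, 7 were found among the 21842 symbols of the table, and Ccl6 was not analysed here. Each of the 7 stood on a single gene identifier: Ccl2 (ENSRNOG00000007159), Ccl3 (ENSRNOG00000011205), Ccl4 (ENSRNOG00000011406), Ccl5 (ENSRNOG00000010906), Ccl7 (ENSRNOG00000000239), Ccl12 (ENSRNOG00000029768) and Ccl22 (ENSRNOG00000016535). All 7 passed the filter on low counts, which left 13608 genes to test.

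The cells came from whole brains of male rats of the Wistar (Hsd/Cpb:WU) strain and were gated by flow cytometry as DAPI-negative, CD11b-high and CD45-intermediate after mechanical dissociation in the cold. Rats were either exposed to 14 Gy of X-rays or sham-irradiated. After 6 weeks they received an intraperitoneal injection, which was phosphate-buffered saline (PBS, the vehicle) or lipopolysaccharide (LPS, a cell wall component of Gram-negative bacteria). The 4 groups were thus sham with PBS, sham with LPS, irradiated with PBS and irradiated with LPS, with 4 libraries each and 16 in all, numbered 1 to 4 within a group as in their titles and listed in that order below. For the age of the rats, the dose of LPS and the time from injection to sampling, the sources used here give no value. Since animals are not named in the labels, p-values here measure only how far these samples spread, which may be technical.

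CC chemokines are small secreted proteins, named for the adjacent cysteines near their amino terminus, that guide leukocytes through G protein-coupled receptors. CCL2, CCL7 and CCL12 act on CCR2 and draw monocytes out of marrow and blood, CCL3, CCL4 and CCL5 attract monocytes, macrophages and T cells, and CCL22 acts with CCL17 on CCR4 of T cells. LPS is sensed by TLR4 with its co-receptor CD14, which switches on NF-kB and, through interferon regulatory factors, interferon signalling. Microglia carry TLR4 and are a known source of several of these chemokines in the inflamed brain.

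Library totals ran from 14.3e6 to 62.7e6 counts, and the deepest library was irradiated with LPS number 2. All 10 microglial markers (among them P2ry12, Tmem119 and Cx3cr1) were present in every group, and their summed level was 47000 to 50900 CPM (the read count scaled to the size of its library) in sham rats with PBS. It was 37100 to 41000 CPM in sham rats with LPS, 21800 to 27500 CPM in irradiated rats with PBS and 15600 to 20100 CPM in irradiated rats with LPS. The summed levels of border-associated macrophage and monocyte markers ran the other way. In the same order of groups, the ranges were 400 to 469, 480 to 1070, 1340 to 1660 and 3160 to 4340 CPM for 10 genes of border-associated macrophages. They were 157 to 232, 301 to 416, 443 to 508 and 609 to 1050 CPM for 8 monocyte genes. Gene by gene, irradiation raised 9 of the 10 border-associated macrophage genes with either injection, while LPS raised 3 and lowered 1 in sham rats and raised 3 and lowered 3 in irradiated rats. Of the monocyte genes, LPS raised 4 and lowered 2 in sham rats and raised 5 and lowered 1 in irradiated rats, and irradiation raised 5 with PBS and 6 with LPS. In bulk samples, a change in the number of cells of a type and a change in RNA per cell cannot be told apart.

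In these cells LPS was followed by more RNA of 6 of the 7 chemokine genes in sham and in irradiated rats alike. Irradiation alone was followed by more Ccl5 and Ccl4. Among rats given LPS, the irradiated ones had more of the same 6 genes than the sham ones, from 2.23-fold for Ccl4 to 17.8-fold for Ccl22. Ccl12 varied too much between libraries to be called in any comparison. The highest mean of every one of the 7 genes was in irradiated rats given LPS, and the lowest was in sham rats given PBS.

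The counts behind this are as follows, with a gene called higher or lower where its edgeR quasi-likelihood p, adjusted over all genes tested, was under 0.05. For LPS against PBS in sham rats, 6 of 7 members were called higher, where 15.2% of all genes were, and the members' median log2 fold change was 2.63 against -0.01 for all genes. For LPS against PBS in irradiated rats, 6 of 7 were called higher, where 17.0% of all genes were (medians 2.74 and -0.02). For irradiated against sham rats with PBS, 2 of 7 were called higher, where 11.5% of all genes were (medians 0.83 and 0.00). With LPS, 6 of 7 were called higher in irradiated rats, where 15.1% of all genes were (medians 1.76 and 0.01). No member was called lower in these 4 comparisons (0 of 7 each), where 14.5%, 14.5%, 9.91% and 12.6% of all genes were. The libraries of the groups did not overlap for 6, 6, 2 and 5 of the 7 members, in the same order, and the same held in the upward direction for 14.6%, 17.5%, 13.9% and 15.0% of all genes. These comparisons share groups with each other, so their counts are not independent.

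**Figure D1:**
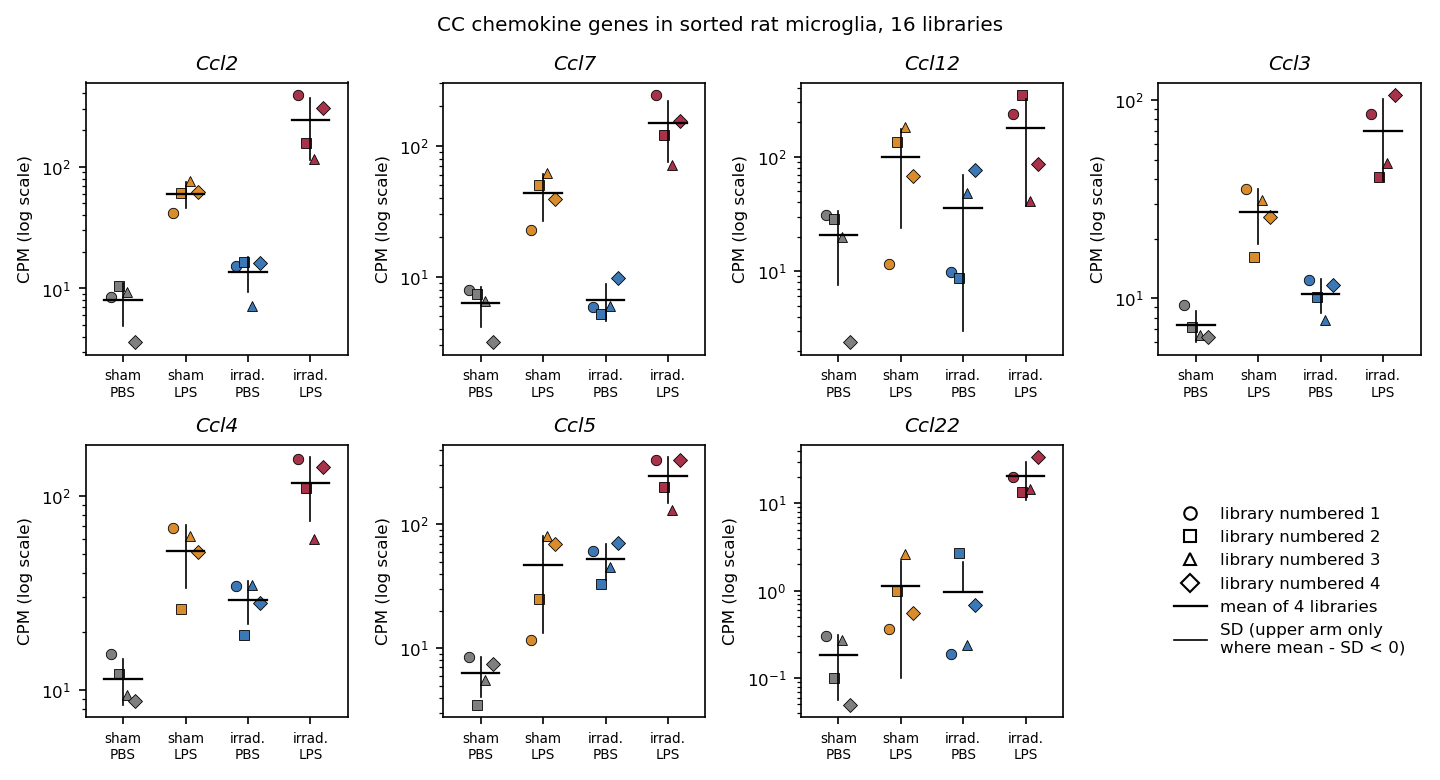
Level of each of the 7 genes in every library, in CPM on a log axis, by group, with a line at the mean of 4 libraries and a bar for the SD. All 4 libraries of irradiated rats with LPS lay above all sham libraries with LPS for Ccl2, Ccl7, Ccl3, Ccl5 and Ccl22, while Ccl12 spread widely within each group.

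Ccl2 encodes the main chemoattractant of CCR2-bearing monocytes. Its levels were 8.52, 10.5, 9.30 and 3.61 CPM in sham rats with PBS and 15.2, 16.6, 7.21 and 16.1 CPM in irradiated rats with PBS. After LPS they were 42.0, 60.4, 76.6 and 61.9 CPM in sham rats and 389, 157, 115 and 302 CPM in irradiated rats. Every library with LPS was above every library with PBS, and the irradiated libraries with LPS were all above the sham ones, while the PBS groups overlapped. The group means rose from 7.97 ± 3.01 to 60.2 ± 14.2 CPM in sham rats (SD, n = 4), a log2 fold change of 2.92 ± 0.43 (SE; 7.55-fold, adjusted p = 0.000163). In irradiated rats they rose from 13.8 ± 4.42 to 241 ± 127 CPM, a log2 fold change of 4.13 ± 0.44 (17.5-fold, adjusted p = 7.44e-06). Among rats given LPS, Ccl2 was 3.99-fold higher after irradiation (log2 fold change 2.00 ± 0.40, adjusted p = 0.00175). With PBS the difference was 0.79 ± 0.42, with a 95% interval from -0.11 to 1.69, and was not called (adjusted p = 0.217).

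Ccl7 lies next to Ccl2 on chromosome 10 and encodes a further CCR2 ligand with a broader choice of receptors. It stood at 7.97, 7.43, 6.53 and 3.17 CPM in sham rats with PBS and at 5.85, 5.22, 5.96 and 9.81 CPM in irradiated rats with PBS. After LPS the values were 23.0, 50.0, 62.6 and 39.2 CPM in sham rats and 245, 122, 70.9 and 155 CPM in irradiated rats. The PBS groups overlapped almost fully, and each LPS group stood clear of both PBS groups and of the other LPS group. LPS raised Ccl7 6.99-fold in sham rats (2.80 ± 0.42 on the log2 scale, adjusted p = 0.000154) and 21.8-fold in irradiated rats (4.45 ± 0.44, adjusted p = 2.64e-06). Irradiation with LPS gave a 3.38-fold higher level than LPS alone (1.76 ± 0.38, adjusted p = 0.00307). Irradiation with PBS left Ccl7 at 6.71 ± 2.09 CPM beside 6.27 ± 2.15 CPM in sham rats, a log2 fold change of 0.11 with a 95% interval from -0.77 to 1.00 (adjusted p = 0.887). The sign of that value turned to -0.11 without sham with PBS number 4 and to -0.14 without irradiated with PBS number 4.

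The third CCR2 ligand, Ccl12, which has a close homologue in the mouse but no clear human counterpart, was spread over a wide range in each group. Sham rats with PBS had 31.1, 28.7, 20.0 and 2.38 CPM, and irradiated rats with PBS had 9.83, 8.66, 48.5 and 77.1 CPM. With LPS the values were 11.5, 135, 184 and 67.9 CPM in sham rats and 235, 349, 40.8 and 87.1 CPM in irradiated rats. The highest library of a group was 13.1, 16.0, 8.90 and 8.55 times its lowest (sham with PBS, sham with LPS, irradiated with PBS, irradiated with LPS), and all groups overlapped with each other except sham with PBS and irradiated with LPS. The estimated LPS effect on Ccl12 was 2.28 ± 1.03 on the log2 scale in sham rats (adjusted p = 0.119) and 2.29 ± 1.02 in irradiated rats (adjusted p = 0.11). DESeq2 called both, at adjusted p of 0.0473 and 0.0447. The effects of irradiation were 0.83 ± 1.00 with PBS (adjusted p = 0.622) and 0.84 ± 0.97 with LPS (adjusted p = 0.589), with 95% intervals from -1.35 to 3.00 and from -1.28 to 2.95. Without irradiated with PBS number 4 the LPS effect in irradiated rats was 2.98 and the irradiation effect with PBS was 0.14.

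The spread of Ccl12 was high for this experiment. The biological coefficient of variation of a gene in the fit, which is the relative spread between libraries of a group beyond counting noise, was 0.907 for Ccl12, and 95.9% of tested genes had a lower one. For the neighbours Ccl2 and Ccl7 it was 0.386 and 0.375, above 72.9% and 71.8% of genes. Another ligand gene of the chromosome 10 clusters, Ccl9, chosen here after its values were seen, had a coefficient of 1.096, above 98.3% of genes. Its levels were 112, 80.0, 10.9 and 5.79 CPM in sham rats with PBS and 7.28, 3.59, 84.5 and 116 CPM in sham rats with LPS. They were 2.74, 2.83, 28.6 and 28.5 CPM in irradiated rats with PBS and 29.1, 7.54, 5.30 and 8.11 CPM in irradiated rats with LPS. Ccl9 was called in none of the comparisons of LPS or of irradiation (adjusted p from 0.256 to 0.993). In sham rats with PBS the libraries had the same order in Ccl12 and Ccl9, and in irradiated rats with PBS numbers 1 and 2 were low and numbers 3 and 4 high in both. With LPS the orders differed: sham with LPS number 2 had 135 CPM of Ccl12 and 3.59 CPM of Ccl9, and irradiated with LPS number 2 had 349 and 7.54 CPM.

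The promoters of Ccl7 and Ccl12 are shown because these genes lie in 1 cluster and had such different spreads, and that of Ccl22 because its LPS response had one of the largest folds among the members. Each run is the 250 bases before the gene's start in RefSeq on the rat build GRCr8, written 5′ to 3′ on the strand of the gene, and the table used here held a promoter for 4 of the 8 symbols (Ccl6, Ccl7, Ccl12 and Ccl22). Capitals mark matches to an NF-kB motif (GGG and CC with 5 bases of any kind between them), an AP-1 motif (TGANTCA) or a TATA box (TATAAA). An interferon response motif (TTTC and TTTC with 2 bases of any kind between them) was searched as well, and all 4 motifs were searched on both strands.
Ccl7, chr10:67513845-67514094, plus strand: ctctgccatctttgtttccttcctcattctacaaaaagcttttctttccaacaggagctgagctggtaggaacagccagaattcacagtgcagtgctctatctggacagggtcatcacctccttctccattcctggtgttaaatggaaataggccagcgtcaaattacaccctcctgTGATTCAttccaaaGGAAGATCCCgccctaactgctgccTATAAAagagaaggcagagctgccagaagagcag
Ccl12, chr10:67567626-67567875, plus strand: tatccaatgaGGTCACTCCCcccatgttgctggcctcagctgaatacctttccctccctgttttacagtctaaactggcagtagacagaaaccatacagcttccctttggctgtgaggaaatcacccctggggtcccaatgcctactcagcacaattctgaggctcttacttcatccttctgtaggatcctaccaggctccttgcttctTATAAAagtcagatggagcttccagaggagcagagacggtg
Ccl22, chr19:10270360-10270609, minus strand: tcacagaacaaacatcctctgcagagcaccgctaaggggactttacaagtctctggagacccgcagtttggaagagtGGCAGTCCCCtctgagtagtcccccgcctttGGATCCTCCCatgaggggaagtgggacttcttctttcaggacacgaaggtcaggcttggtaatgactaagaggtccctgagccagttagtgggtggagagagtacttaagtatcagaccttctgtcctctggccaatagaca
In Ccl7 the capitals are, in order, TGATTCA (AP-1, 73 to 67 bases before the start), GGAAGATCCC (NF-kB on the opposite strand, 59 to 50 bases before it) and the TATA box (34 to 29). In Ccl12 they are GGTCACTCCC (NF-kB, opposite strand, 240 to 231 bases before the start) and the TATA box (41 to 36). In Ccl22 both are NF-kB matches on the opposite strand, GGCAGTCCCC (173 to 164) and GGATCCTCCC (142 to 133). No match overlapped another, and the interferon motif was found in none of these 3 windows. Of the 33469 promoters in the table, 42.3% held the NF-kB motif, 6.34% the AP-1 motif, 12.9% the TATA box and 3.41% the interferon motif in windows of the same length. A match describes the letters only and was not tested for binding.

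Ccl3 and Ccl4 are neighbours in another cluster of chromosome 10 and encode the macrophage inflammatory proteins 1-alpha and 1-beta, which attract macrophages and T cells. Ccl3 stood at 9.25, 7.13, 6.53 and 6.38 CPM in sham rats with PBS and at 12.4, 10.1, 7.74 and 11.7 CPM in irradiated rats with PBS. With LPS it reached 35.5, 16.1, 31.2 and 25.7 CPM in sham rats and 85.0, 40.7, 47.9 and 106 CPM in irradiated rats. Only the PBS groups overlapped. LPS raised Ccl3 3.71-fold in sham rats (1.89 ± 0.30 on the log2 scale, adjusted p = 0.000161) and 6.68-fold in irradiated rats (2.74 ± 0.30, adjusted p = 3.18e-06). Irradiated rats with LPS had 2.58 times the level of sham rats with LPS (1.37 ± 0.29, adjusted p = 0.00163). With PBS the irradiation effect on Ccl3 was 0.52 ± 0.30, with a 95% interval from -0.11 to 1.15 (adjusted p = 0.251).

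Ccl4 was also raised by irradiation alone. Its levels were 15.4, 12.1, 9.43 and 8.76 CPM in sham rats with PBS and 34.5, 19.3, 34.9 and 28.0 CPM in irradiated rats with PBS, with no overlap. The means were 11.4 ± 3.04 and 29.2 ± 7.28 CPM, a log2 fold change of 1.35 ± 0.33 (2.56-fold, adjusted p = 0.00787). With LPS the values were 67.9, 26.3, 62.2 and 51.6 CPM in sham rats and 154, 110, 59.7 and 140 CPM in irradiated rats. Irradiated with LPS number 3 fell within the sham range and the other 3 irradiated libraries lay above it. Ccl4 rose 4.56-fold with LPS in sham rats (2.19 ± 0.33, adjusted p = 0.000168) and 3.97-fold in irradiated rats (1.99 ± 0.32, adjusted p = 0.000242). Between irradiated and sham rats given LPS the difference was 2.23-fold (1.15 ± 0.32, adjusted p = 0.0128). The difference between Ccl4 and Ccl3 in their irradiation effects was not itself tested.

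The ratio of Ccl4 to Ccl3 counts within a library describes the pair without any scaling between libraries. It was 1.67, 1.70, 1.44 and 1.37 in sham rats with PBS and 2.78, 1.91, 4.50 and 2.40 in irradiated rats with PBS, so the groups did not overlap. With LPS it was 1.91, 1.64, 1.99 and 2.01 in sham rats and 1.81, 2.70, 1.25 and 1.31 in irradiated rats, which overlapped. For Ccl2 to Ccl7 the ratio was 1.07 to 1.42 in sham rats with PBS and 1.21 to 1.83 in sham rats with LPS. It was 1.21 to 3.18 in irradiated rats with PBS and 1.29 to 1.96 in irradiated rats with LPS, and all 4 groups overlapped. Counts are not corrected for gene length, so a ratio above 1 does not order the 2 genes, and the ratios are given as descriptions with no test.

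**Figure D2:**
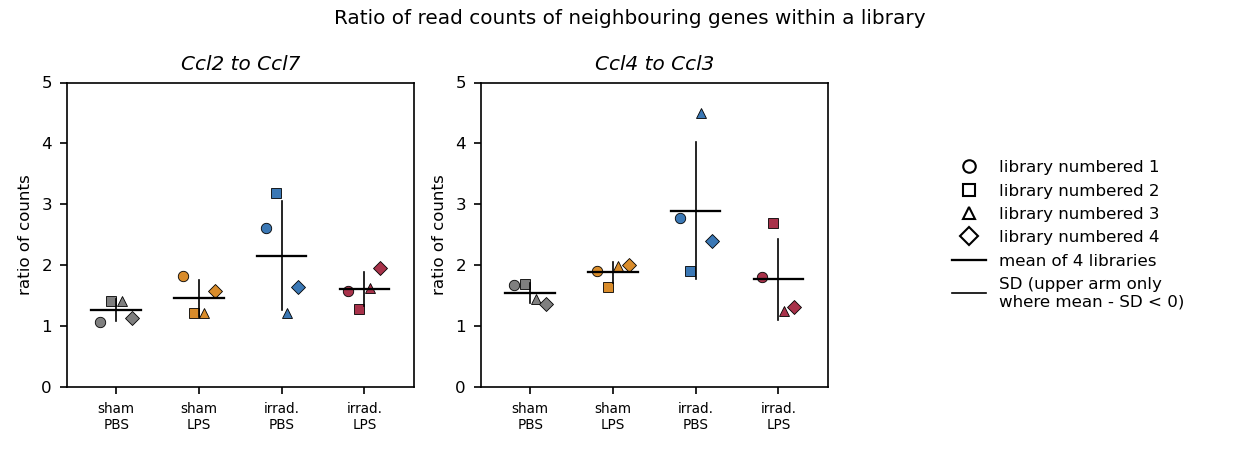
Ratio of read counts within each library for Ccl2 to Ccl7 and for Ccl4 to Ccl3, by group, with a line at the mean of 4 libraries and a bar for the SD. The Ccl4 to Ccl3 ratio of irradiated rats with PBS lay between 1.91 and 4.50, above the sham libraries with PBS at 1.37 to 1.70.

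Ccl5, or RANTES, attracts T cells and monocytes and is made by T and NK cells as well as by activated macrophages. It showed the largest called effect of irradiation with PBS among the members. Its levels were 8.52, 3.49, 5.57 and 7.52 CPM in sham rats with PBS and 61.1, 33.0, 45.4 and 71.1 CPM in irradiated rats with PBS. With LPS they were 11.7, 25.0, 80.9 and 69.8 CPM in sham rats and 333, 201, 130 and 329 CPM in irradiated rats. The sham libraries with PBS were the lowest and the irradiated libraries with LPS the highest, without overlap, while sham with LPS and irradiated with PBS overlapped. Irradiation raised Ccl5 8.44-fold with PBS (3.08 ± 0.58, adjusted p = 0.00184) and 5.29-fold with LPS (2.40 ± 0.54, adjusted p = 0.00438). LPS raised it 7.50-fold in sham rats (2.91 ± 0.58, adjusted p = 0.00193) and 4.71-fold in irradiated rats (2.24 ± 0.53, adjusted p = 0.00595). With limma voom and sample weights the effect of irradiation with LPS was 3.04.

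As a sum, T and NK cell genes were lowest in sham rats with PBS and highest in irradiated rats with LPS, by median. The summed level of 14 such genes was 16.3, 10.7, 16.1 and 20.9 CPM in sham rats with PBS and 114, 60.4, 75.9 and 118 CPM in irradiated rats with PBS, library by library. It was 20.5, 70.6, 183 and 156 CPM in sham rats with LPS and 890, 412, 501 and 931 CPM in irradiated rats with LPS. Within sham rats with LPS, the libraries had the same order in Ccl5 and in this sum, from number 1 as the lowest to number 3 as the highest. In irradiated rats with PBS the orders also matched. They differed in sham rats with PBS and in irradiated rats with LPS. Irradiated against sham rats with PBS, 12 of the 13 tested genes of the list were called higher, and with LPS 10 were. Fewer were called for LPS itself, which raised 5 and lowered 0 in sham rats and raised 5 and lowered 1 in irradiated rats. None of the 14 was at 0 in a whole group, and the part of these cells in the Ccl5 result was not tested.

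Ccl22 encodes a chemokine of macrophages and dendritic cells that attracts CCR4-bearing T cells, including regulatory ones. It was close to the limit of detection in sham rats with PBS, with 5, 2, 6 and 1 counts, or 0.304, 0.0997, 0.276 and 0.0495 CPM. It had 3, 49, 5 and 19 counts in irradiated rats with PBS (0.187, 2.72, 0.240 and 0.693 CPM) and 6, 18, 46 and 10 counts in sham rats with LPS (0.364, 0.994, 2.64 and 0.551 CPM). In irradiated rats with LPS it had 390, 819, 463 and 1248 counts, or 20.0, 13.3, 14.4 and 33.5 CPM. These libraries were all far above the other 12, and the PBS groups overlapped. Among rats given LPS, irradiated rats had 17.8-fold more Ccl22 than sham rats (4.15 ± 0.73 on the log2 scale, adjusted p = 0.000445), and within irradiated rats LPS raised it 21.2-fold (4.41 ± 0.74, adjusted p = 0.000256). Without irradiated with PBS number 2 the second value was 5.66, and without sham with LPS number 3 the first was 4.98, with both still called.

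In sham rats the LPS effect on Ccl22 was 2.63 ± 0.90 (6.19-fold, adjusted p = 0.0369), and this call was lost in 9 of 25 alternatives. Among them were the fits without any single one of the 4 sham libraries with PBS (values 2.32 to 2.94) and those without sham with LPS number 2 (2.69) or number 3 (1.81), with adjusted p from 0.0526 to 0.17. The irradiation effect with PBS was 2.37 ± 0.90, with a 95% interval from 0.45 to 4.29, and was not called (adjusted p = 0.0755). It became a call without irradiated with PBS number 1 (2.69) or number 3 (2.70), and it was 1.12 without number 2. The summed level of 8 dendritic cell genes, among them Flt3, Zbtb46 and Ccr7, was 942 to 1140 CPM in sham rats with PBS and 585 to 829 CPM in sham rats with LPS. It was 703 to 1040 CPM in irradiated rats with PBS and 459 to 555 CPM in irradiated rats with LPS. Gene by gene the list differed from its sum: of 7 tested genes, irradiation raised 5 and lowered 0 with PBS (median log2 fold change 1.5) and raised 5 and lowered 1 with LPS (median 1.97). LPS raised 0 and lowered 3 in sham rats and raised 0 and lowered 2 in irradiated rats. The part of these cells in the Ccl22 result was not tested.

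**Figure D3:**
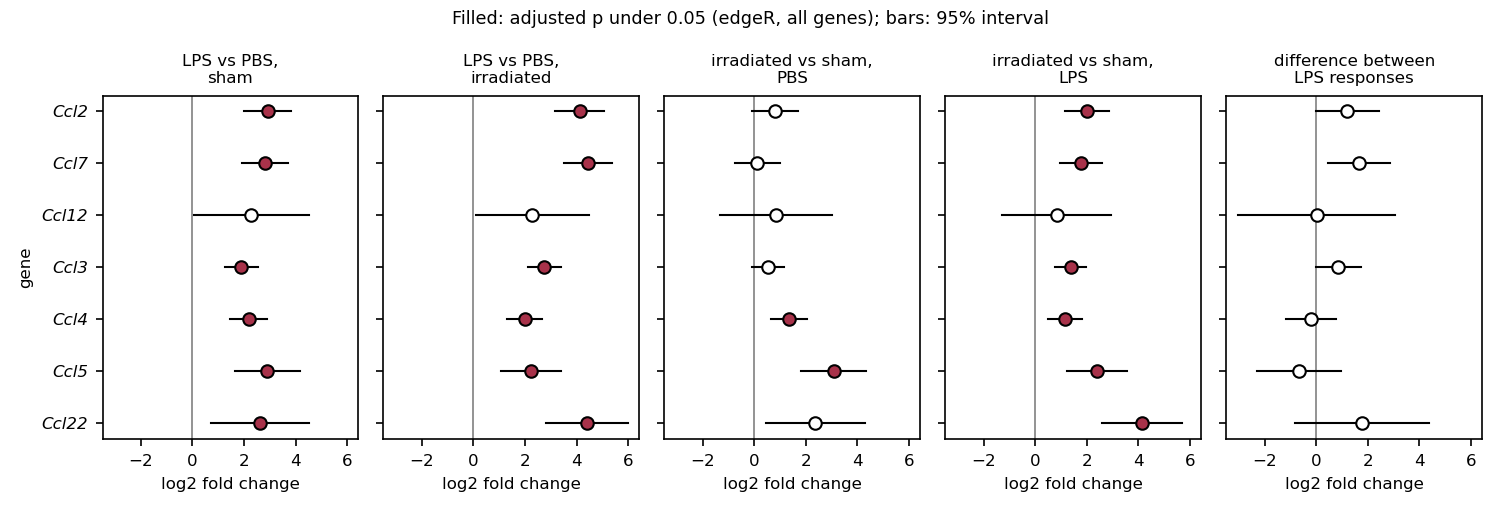
Log2 fold change of each gene (points) with its 95% interval (bars) in 4 comparisons and for the difference between the LPS responses of irradiated and sham rats. Filled points have an edgeR adjusted p under 0.05, and in the rightmost panel no point is filled.

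Whether the LPS response itself differed between irradiated and sham rats was tested as the interaction, the difference between the log2 fold changes for LPS in irradiated and in sham rats. No member was called (0 of 7), where 1.26% of all genes were called in either direction. DESeq2, which called 439 of 10800 genes, and limma voom, which called 175 of 13608, called 0 members as well. Ccl7 had the smallest adjusted p, with a difference of 1.64 ± 0.56 (95% interval 0.44 to 2.85, adjusted p = 0.23). For Ccl2 the difference was 1.21 ± 0.57 (interval -0.02 to 2.43, adjusted p = 0.432) and for Ccl3 it was 0.85 ± 0.41 (interval -0.02 to 1.72, adjusted p = 0.44). Ccl22 had 1.78 ± 1.22, with an interval from -0.82 to 4.38 (adjusted p = 0.643). Ccl4 was at -0.20 (interval -1.16 to 0.76, adjusted p = 0.926) and Ccl5 at -0.67 (interval -2.30 to 0.96, adjusted p = 0.817). Irradiation alone had raised both. A high level in irradiated rats with PBS itself lowers this difference, so the sign of these values is not a separate result. Ccl12 was at 0.01 with an interval from -3.04 to 3.07. The intervals of Ccl2, Ccl3 and Ccl22 thus include both no difference and a response more than 3 times as large, in fold terms, in irradiated rats.

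The order of the group means was the same for 6 of the 7 genes: sham with PBS, irradiated with PBS, sham with LPS and irradiated with LPS. Ccl5 was the exception, with 52.7 ± 16.8 CPM in irradiated rats with PBS and 46.8 ± 33.6 CPM in sham rats with LPS. The middle groups were compared after these values had been seen. Irradiated rats with PBS had less Ccl2 (-2.13 ± 0.41, adjusted p = 0.000991), Ccl3 (-1.37 ± 0.29, adjusted p = 0.0014) and Ccl7 (-2.69 ± 0.41, adjusted p = 0.000131) than sham rats with LPS, so 3 of 7 members were called lower, where 18.8% of all genes were. These 3 were also the members whose libraries did not overlap, which in the downward direction held for 17.4% of all genes. Ccl4 (-0.83 ± 0.32, adjusted p = 0.0521) was at the threshold and was called without sham with LPS number 2 (-1.05), without irradiated with LPS number 1 and without number 3. It was also called by DESeq2 (-0.84, adjusted p = 0.0163), without robust moderation (-0.83, adjusted p = 0.0382) and in the fit of only the groups compared (-0.83). Ccl5 (0.17, 95% interval -0.95 to 1.29), Ccl12 (-1.46, interval -3.62 to 0.70) and Ccl22 (-0.26, interval -1.82 to 1.30) did not differ beyond their spread. The sign of the Ccl5 value turned without sham with LPS number 1 (-0.15) or number 2 (-0.04), or without irradiated with PBS number 4 (-0.01).

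The pattern over the 16 libraries was compared between genes as the root mean square difference of log2 CPM, with each gene centred on its own mean. Over all tested genes with a symbol and a mean log2 CPM of at least 3, the gene nearest to Ccl2 was its neighbour Ccl7, at 0.41, where the SD of Ccl2 itself was 1.97. Il1b, the gene of interleukin 1 beta, and Il18rap, a subunit of the interleukin 18 receptor, followed at 0.55 each for Ccl2 and at 0.64 each for Ccl7. Ccl3 was nearest to Hivep2 (0.34), Gbp7 (0.42) and RGD1307182 (0.44), with Ccl4 at 0.46. Ccl4 was nearest to B4galt5 (0.41), Ralgds (0.43) and Samsn1 (0.43). Ccl5 was nearest to Irf7, an interferon regulatory factor (0.52), Nkg7, a gene of cytotoxic lymphocytes (0.53), and AC128859.3 (0.59).

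Nothing lay as close to the members with a wide spread. For Ccl12 the nearest genes were Oas1k (1.09), Herc6 (1.15) and Xaf1 (1.18), against an SD of 1.88, and for Ccl22 they were Cd38 (1.04), Tnfrsf14 (1.05) and Bcat1 (1.09), against an SD of 2.52. The points share libraries, depth and group, so these distances are descriptions.

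The shares of all genes called higher or lower, given above with the member counts, are the background for every gene list. Of 13 other CC ligand genes, 12 were in the files and 4 were tested. LPS in sham rats raised 1 and lowered 0, and LPS in irradiated rats raised 1 and lowered 1. Irradiation raised 1 with PBS and 2 with LPS, and lowered 0. Ccl17, which shares the receptor CCR4 with Ccl22, was the one raised by LPS. It stood at 0.791, 0.249, 1.33 and 0.495 CPM in sham rats with PBS and at 2.11, 4.38, 0.721 and 3.21 CPM in irradiated rats with PBS. After LPS it reached 4.07, 19.8, 15.1 and 26.5 CPM in sham rats and 109, 99.0, 81.7 and 103 CPM in irradiated rats. As with Ccl22, the irradiated libraries with LPS stood far above all others, and the sham LPS libraries were clear of the sham PBS ones. The LPS effect on Ccl17 was 4.49 ± 0.62 in sham rats (22.5-fold, adjusted p = 9.03e-05) and 5.23 ± 0.57 in irradiated rats (37.6-fold, adjusted p = 7.74e-06). Irradiated rats with LPS had 5.99 times the level of sham rats with LPS (2.58 ± 0.49, adjusted p = 0.00113).

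Ccl24, an eosinophil chemoattractant that acts on CCR3, went another way. It was higher in irradiated rats, 3.63-fold with PBS (1.86 ± 0.51, adjusted p = 0.0178) and by 1.57 ± 0.53 on the log2 scale with LPS (adjusted p = 0.0398). LPS in irradiated rats lowered it (-1.76 ± 0.51, adjusted p = 0.0167), and in sham rats the value was -1.46 ± 0.53 (adjusted p = 0.0522). The group means were 15.9 CPM in sham rats with PBS, 5.74 CPM in sham rats with LPS, 57.7 CPM in irradiated rats with PBS and 17.2 CPM in irradiated rats with LPS. Ccl21, Ccl25 and Ccl26 had 0 counts in all 16 libraries.

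**Figure D4:**
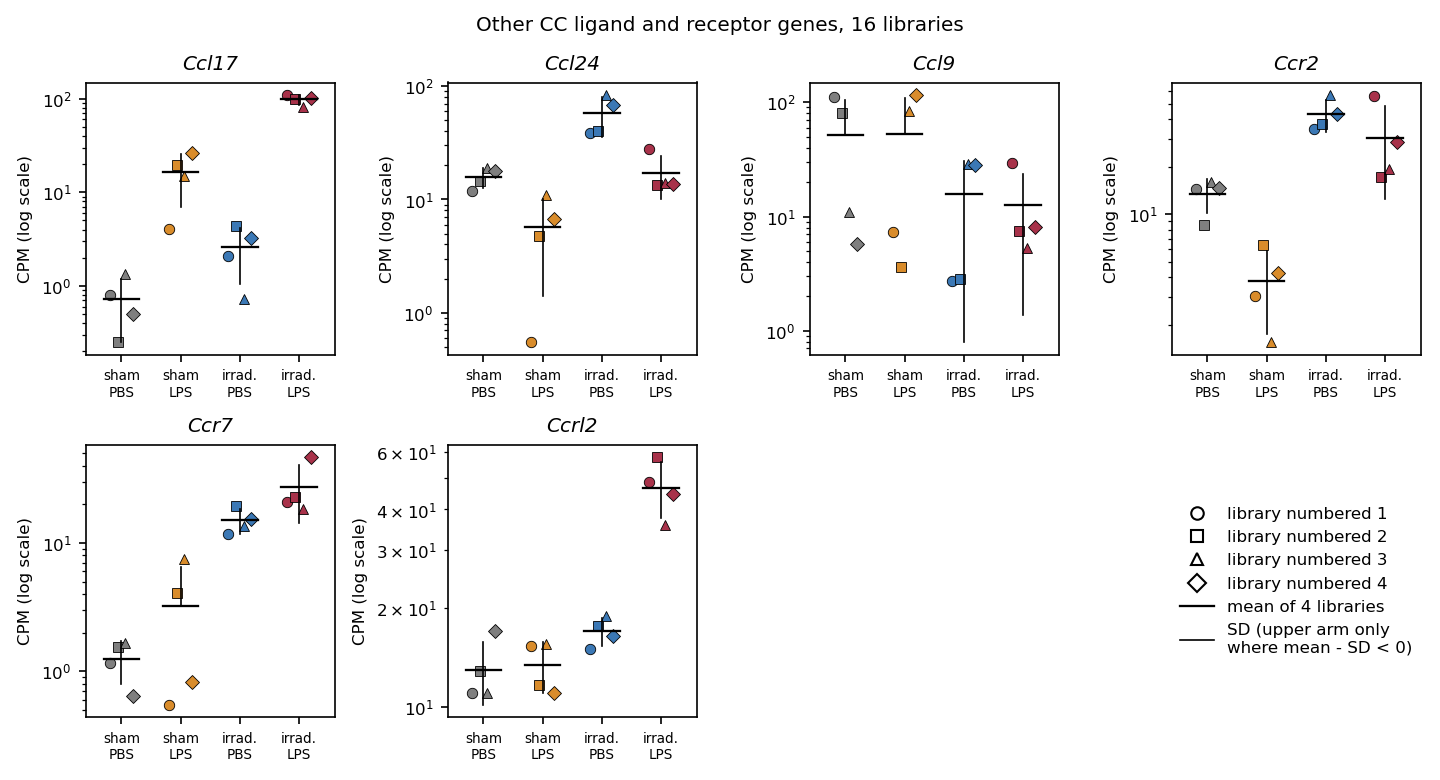
Level of 3 other CC ligand genes, 2 CC receptor genes and the atypical receptor gene Ccrl2 in every library, in CPM on a log axis, with a line at the mean of 4 libraries and a bar for the SD. Ccl17 and Ccrl2 were highest in all 4 irradiated libraries with LPS, while Ccl9 split within groups.

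Of 10 CC receptor genes, 9 were in the files and 5 were tested. LPS in sham rats lowered 2 and raised 0, LPS in irradiated rats changed 0, irradiation with PBS raised 2 and lowered 1, and irradiation with LPS raised 2 and lowered 0. Ccr2, the receptor for Ccl2, Ccl7 and Ccl12 and a marker of inflammatory monocytes, stood at 14.4, 8.57, 15.9 and 14.7 CPM in sham rats with PBS and at 34.8, 37.0, 56.8 and 43.1 CPM in irradiated rats with PBS. With LPS it was at 3.03, 6.41, 1.55 and 4.24 CPM in sham rats and at 56.1, 17.1, 19.4 and 28.8 CPM in irradiated rats. Thus Ccr2 was lowest in sham rats with LPS, in which Ccl2 and Ccl7 had risen. It fell by 1.81 on the log2 scale with LPS in sham rats (SE 0.42, adjusted p = 0.00383), and the value in irradiated rats was -0.51 ± 0.38 (adjusted p = 0.346). Irradiation raised Ccr2 3.21-fold with PBS (1.68 ± 0.39, adjusted p = 0.00559) and 7.89-fold with LPS (2.98 ± 0.42, adjusted p = 6.88e-05).

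Ccr7, a receptor of migrating dendritic cells and lymphocytes, was higher in irradiated rats, 11.9-fold with PBS (3.58 ± 0.64, adjusted p = 0.000816) and 8.43-fold with LPS (3.08 ± 0.60, adjusted p = 0.00116). Ccr6 was lower with LPS in sham rats (-0.97 ± 0.31, adjusted p = 0.0248) and Ccr1l1 was lower in irradiated rats with PBS (-1.17 ± 0.36, adjusted p = 0.0265). Ccr4, the receptor for Ccl22 and Ccl17, had 3 counts in all in sham rats with PBS and 0 in the other 3 groups. Among 6 decoy and atypical receptor genes, 2 were tested.

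The interaction was called for one of them, Ccrl2, which binds chemerin and does not signal itself. It was at 11.0, 12.8, 11.0 and 17.0 CPM in sham rats with PBS, 15.3, 11.6, 15.5 and 11.0 CPM in sham rats with LPS and 15.0, 17.6, 18.9 and 16.4 CPM in irradiated rats with PBS. Irradiated rats with LPS had 48.5, 57.7, 35.8 and 44.6 CPM, and no other library reached 20 CPM. LPS raised Ccrl2 2.75-fold in irradiated rats (1.46 ± 0.17, adjusted p = 4.72e-06), the value in sham rats was 0.04 ± 0.18 (adjusted p = 0.883), and the difference between these responses was 1.41 ± 0.25 (adjusted p = 0.00701).

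Of 34 genes that lead from the LPS receptor to NF-kB and interferon signalling, 30 were tested. LPS raised 15 and lowered 4 in sham rats and raised 17 and lowered 2 in irradiated rats, with medians of 0.45 and 0.42. Irradiation raised 3 and lowered 2 with PBS and raised 8 and lowered 2 with LPS, with medians of 0.09 and 0.19. Cd14, the LPS co-receptor, rose 21.6-fold with LPS in sham rats (4.44 ± 0.54, adjusted p = 4.57e-05) and 4.31-fold with irradiation and PBS (2.11 ± 0.49, adjusted p = 0.00761). Irf7 rose 4.67-fold with LPS in sham rats (2.22 ± 0.44, adjusted p = 0.00188) and 6.62-fold with irradiation and PBS (2.73 ± 0.45, adjusted p = 0.000633). The sham groups overlapped in Irf7, with 20.3 CPM in sham with LPS number 1 and 26.6 CPM in sham with PBS number 1. Irf1 rose by 2.51 ± 0.18 and Nfkb2 by 1.56 ± 0.37 with LPS in sham rats (adjusted p = 1.89e-08 and 0.00494). Among the 4 lowered there were Ikbke (-1.08 ± 0.34, adjusted p = 0.0238) and Tlr4 (-0.58 ± 0.14, adjusted p = 0.0043). Tlr4 also fell with LPS in irradiated rats (-0.44 ± 0.14, adjusted p = 0.0213). The only interaction called in this list was that of Stat2, at 0.67 ± 0.16 (adjusted p = 0.0455).

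Of 13 tested genes of chemokine receptor signalling, LPS raised 4 and lowered 4 in sham rats and raised 5 and lowered 4 in irradiated rats. Irradiation raised 2 and lowered 2 with either injection. Of all genes, irradiation raised 11.5% and lowered 9.91% with PBS, and raised 15.1% and lowered 12.6% with LPS. Rgs1, which shortens G protein signals, rose by 1.66 ± 0.27 with LPS in sham rats (adjusted p = 0.000273), while the receptor kinase genes Grk6 (-1.02 ± 0.14, adjusted p = 2.04e-05) and Grk2 (-0.83 ± 0.11, adjusted p = 1.95e-05) fell. The G protein gene Gnai3 fell with irradiation and PBS (-0.59 ± 0.08, adjusted p = 3.08e-05) and Rac2 rose with irradiation and LPS (0.81 ± 0.09, adjusted p = 2.23e-06).

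Genes of neutrophils and of cell handling varied between the groups as well. The 10 neutrophil genes, of which Mpo was at 0 in every library, summed to 322 to 403 CPM in sham rats with PBS, 243 to 294 in sham rats with LPS, 229 to 302 in irradiated rats with PBS and 361 to 2220 in irradiated rats with LPS. The value of 2220 CPM was that of irradiated with LPS number 1. Of all libraries, number 1 also had the most Ccl2 (389 CPM), Ccl7 (245 CPM), Ccl5 (333 CPM) and Ccl4 (154 CPM). Ccl3, Ccl12 and Ccl22 were highest in other libraries of that group. Numbers 2, 3 and 4 of that group, at 574, 455 and 361 CPM, were also above all sham libraries with LPS. Of 7 neutrophil genes tested, LPS raised 6 and lowered 0 in irradiated rats, and raised 1 and lowered 1 in sham rats. Irradiation raised 6 and lowered 0 with LPS, and raised 1 and lowered 1 with PBS. Both irradiated libraries numbered 1 had the highest summed astrocyte markers (86.9 CPM with PBS, 112 with LPS) and neuron markers (53.4 and 79.0 CPM) of all libraries. Their oligodendrocyte sums were 743 and 847 CPM, against 403 to 502 CPM in the other irradiated libraries. Without both, the same numbers of members were called in all 5 comparisons (6, 6, 2, 6 and 0). That fit keeps the neutrophil genes of the other irradiated libraries with LPS. Immediate early genes, which rise in cell isolation and in activation, summed to 688 to 841 CPM in sham rats with PBS, 3080 to 4120 in sham rats with LPS, 912 to 1130 in irradiated rats with PBS and 2950 to 3500 in irradiated rats with LPS. Of 10 of these genes tested, 7 were called higher with LPS in sham rats and 8 in irradiated rats, with 0 lower in either. Irradiated against sham rats, 7 were called higher and 0 lower with PBS, and 3 higher and 2 lower with LPS. The interaction was called for 2, both lower. The part of these other cells and of handling in the chemokine results was not tested.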

How the data were processed

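For the 16 samples (4 groups of 4) the authors deposited raw counts of reads per Ensembl gene. Libraries were made with a low-input kit and sequenced on a NovaSeq, per the labels' protocols. Tools were HTSeq 2.0.2, fastp 0.23.2 and FastQC 0.11.9, with build mRatBN7.2, per the submitters' processing notes. Which aligner and annotation release were used, and whether counting used strand, is not given in the sources used here. Reads of similar or overlapping genes (Ccl2, Ccl7 and Ccl12, or Ccl3 and Ccl4) may have been split or lost between them. The single-sample tables held 30560 gene identifiers, 6518 of them without a symbol (1.85% to 2.28% of counts). The table per symbol matched them in all 349472 cells compared (0 differed).

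Counts were analysed with edgeR 4.0.16 in R 4.3.3 (TMM factors, filterByExpr, robust quasi-likelihood fit, 1 coefficient per group over all 16 libraries). P-values were adjusted by Benjamini-Hochberg over 13608 genes, and genes with an adjusted p under 0.05 were called. The SE is the log2 fold change over the root of F, and intervals are 95% intervals on the same degrees of freedom. CPM were scaled with the TMM factors, and log2 CPM used a prior count of 2. Total counts of 14.3e6 to 62.7e6 limit precision mainly for Ccl22. The script was tested on simulated data. Alternatives were DESeq2 1.42.0, limma 3.58.1 voom with sample weights, library totals, upper quartile factors, no filter, only the groups compared, no robust moderation, counts per symbol, a replicate block, and fits without both irradiated libraries numbered 1 or without each library.

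The members, gene lists and tests were chosen with earlier results of these data known. The 7 members were always named. Of each other list, the rule named called genes whose mean log2 CPM was 1 or more, largest change first, up to 6 per comparison. A receptor gene of the lists is not reported here. Ccl21, Ccl25, Ccl26, Ccr4, Ccl9 and Tlr4 were named outside this rule, after their values were seen. The comparison of irradiated rats with PBS against sham rats with LPS was added after the values were seen. Gene order and promoters come from RefSeq on GRCr8.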

Additional observations from a re-analysis of the deposited data

Results flagged for a closer look

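In 44 groups of 4 libraries (11 genes in 4 groups), 4 had a single library standing apart from the other 3, and chance flags about 1 in 20 groups. Among the members, Ccl2 in irradiated with PBS number 3 was 7.21 CPM, below the other 3 libraries at 15.2 to 16.6 CPM, and Ccl7 in irradiated with PBS number 4 was 9.81 CPM, above the others at 5.22 to 5.96 CPM. Among related genes, irradiated with LPS number 1 was the highest of its group for Ccl9 (29.1 CPM) and for Ccl24 (27.7 CPM).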

How the results depend on the processing

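Over 26 alternatives, 1169 of 1212 values were kept, 9 lost a call, 12 gained one and 22 changed sign, 0 of the 22 being called. A log2 fold change was kept where its direction and its side of the threshold stayed. The 1212 values also include the numbers of members called, which were counted as kept although some moved within the ranges given next. The number of members called stayed between 5 and 7 for LPS in sham rats, 6 and 7 for LPS in irradiated rats, 2 and 3 for irradiation with PBS, at 6 for irradiation with LPS and at 0 for the interaction. Every lost call was that of Ccl22 for LPS in sham rats, which also went with limma voom (2.28) and with no filter (2.62). Fitting only the groups compared gave no value for Ccl22 in that comparison or for irradiation with PBS, since the filter removed it. DESeq2 added Ccl12 for LPS in sham (2.28) and irradiated (2.31) rats, Ccl22 for irradiation with PBS (2.41) and Ccl4 between irradiated rats with PBS and sham rats with LPS (-0.84). Sign changes were those of Ccl7 for irradiation with PBS (leaving out libraries -0.14 to 0.24) and of Ccl4 in the interaction (0.05 with voom, -0.42 to 0.02 leaving out libraries). In the interaction of Ccl12 the value was -0.04 with library totals, -0.02 with upper quartile factors, -0.43 without both irradiated libraries numbered 1 and -0.52 to 0.70 leaving out libraries. Between irradiated rats with PBS and sham rats with LPS, Ccl5 ran from -0.15 to 0.57 and Ccl22 from -1.51 to 0.57 leaving out libraries, with 0.08 for Ccl22 without both irradiated libraries numbered 1. The cause of these shifts was not tested.

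Whether same-numbered libraries are pairs could not be told from the labels. The deviations of 24 same-numbered pairs correlated between -0.089 and 0.405, 10 of them above 0.1. Of 16 libraries, 11 correlated best with their own number, and how many would do so with unrelated numbers was not computed. What same-numbered libraries share was not tested, and the main fit held no term for the number. With the replicate block 5, 6, 2, 6 and 0 members were called in the 5 comparisons. The block ended the Ccl22 call for LPS in sham rats (2.56, adjusted p = 0.0679) and added one for Ccl4 between irradiated rats with PBS and sham rats with LPS (-0.81), and changed no other call of a member.

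Library totals in place of TMM factors moved the median of all genes by 0.156 for irradiation with PBS, to 0.151, with 2331 of 3056 calls higher in place of 1566 of 2914. Ccl4 was then at 1.51 and Ccl5 at 3.24. For LPS in irradiated rats the median moved to -0.139, with 1784 of 4552 calls higher in place of 2309 of 4277 (1877 of 4442 with upper quartile factors). For the interaction 63 of 225 calls were higher with library totals and 67 of 182 with upper quartile factors, in place of 83 of 171. DESeq2 called 439 genes for the interaction, the fit without both irradiated libraries numbered 1 called 98, and fits without 1 library 103 to 191. Depth limited Ccl22, with 14 counts in all in sham rats with PBS.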
